A study of Saccharomyces cerevisiae with 4 samples.

Results

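The genes described here encode 38 cytosolic translation factors of Saccharomyces cerevisiae, which carry an mRNA through initiation, elongation and termination on the ribosome. They were chosen by name, with earlier results of these data known. All 38 had 1 probe each among the 4072 named genes of the array, under their current symbols. The comparison was between yeast carrying pAG305GPD-AAE13 and control yeast carrying pAG305GPD-ccdB. AAE13 is a plant malonyl-CoA synthetase, driven here by the strong constitutive GPD promoter. The vector integrates and is selected by LEU2, and the control strain carried it with the ccdB cassette in place of AAE13. Both strains were fed malonate at 0.2 mM when the optical density reached 0.1, grown at 30 °C in drop-out medium and collected in mid-log phase. Each of 4 two-colour arrays paired 1 of 4 AAE13 cultures with 1 of 4 control cultures. AAE13 was labelled with Cy5 on arrays 1 and 3 and with Cy3 on arrays 2 and 4. Neither the host strain nor the number of transformants behind the cultures is given in these sources, and no probe for AAE13 itself was analysed.

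Translation starts when the cap-binding complex eIF4F and the poly(A)-binding protein prepare an mRNA for the small ribosomal subunit, which carries eIF3 and the initiator tRNA on eIF2. Elongation uses eEF1A to deliver charged tRNAs and eEF2 to move the ribosome along the mRNA, and fungi also need eEF3. In growing yeast some of these factors are among the most abundant proteins, and their genes are commonly co-regulated with those of the ribosomal proteins.

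Values below are log2 ratios of AAE13 over ccdB, after the array median was subtracted, so a gene called lower was lower than the typical gene of its arrays. No source used here states the direction of the deposited ratios. AAE13 over ccdB was assumed from the series title, which names the transgenic strain first. The sample titles of arrays 2 and 4 name ccdB first. Arrays of opposite dye orientation had a mean correlation of 0.576 (0.693 within an orientation), so all arrays were read in the same direction. That correlation would be equal for the inverse direction, so it cannot tell which direction it is. With the inverse direction every sign below would turn. Base 2 is likewise inferred from the range of the values. The 4 arrays limit the precision of every mean, and signal over background is unknown.

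In the AAE13 strain 8 translation factor genes were lower and 0 were higher. Those that fell were PAB1, RPG1, GCN3, TEF2, TEF4, EFB1, YEF3 and HYP2. Among the members 8 of 38 (21.1%) were called lower by limma at an adjusted p under 0.05, against 482 of 4072 genes (11.8%). In either direction 24.8% of all genes were called. This difference in share was there without array 3, but the members' share was below that of all genes without array 1 or array 2 and close to it without array 4. For higher calls the members counted 0 of 38, with 1 at an unadjusted p under 0.05, against 529 genes (13.0%). All 8 were below 0 on every array. At least 2-fold falls were called for 3 members (7.89%), against 5.57% of all genes. The median of the 38 mean log2 ratios was -0.32, against -0.02 over all genes, and 31 members (81.6%) had a mean below 0, against 52.0% of all genes. With the arrays not centred, the median of all genes moved to 0.58. In that fit 0 members were called lower, against 1.35% of all genes. GCD2 alone was called higher, against 744 of 4072 genes. The means of PAB1 (-0.61), RPG1 (-0.06), TEF2 (-0.29), TEF4 (-0.27), EFB1 (-0.54) and YEF3 (-0.89) stayed below the deposited zero. Those of GCN3 (0.075) and HYP2 (0.0175) did not. The calls, though not all of the negative means, thus depended on centring.

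**Figure D1:**
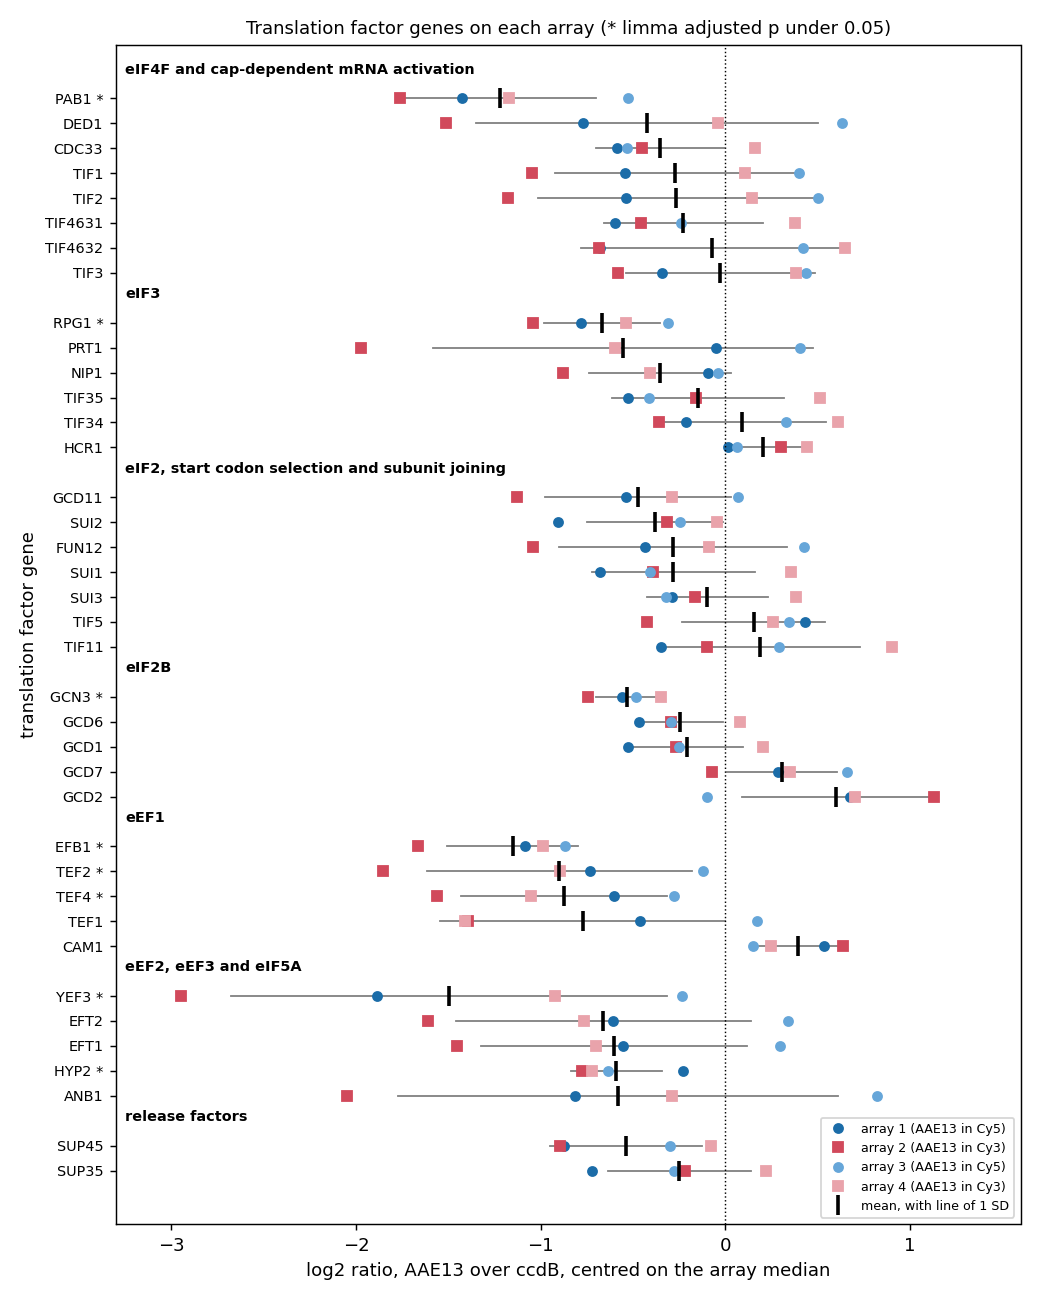
Log2 ratio of AAE13 over ccdB (horizontal axis) for each of the 38 translation factor genes (vertical axis, grouped by role); circles and squares are single arrays, black ticks the means and grey lines 1 SD to each side (n = 4). The 8 starred genes, at a limma adjusted p under 0.05, have all 4 arrays below 0.

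The members were not shifted evenly over the arrays. Below 0 were 33 of the 38 on array 1, 35 on array 2, 20 on array 3 and 19 on array 4. Their median log2 ratios on arrays 1 to 4 were -0.54, -0.76, -0.07 and 0.02. Thus most members were below the typical gene on arrays 1 and 2, and about as many stood above it as below it on arrays 3 and 4, a contrast that does not follow the dyes. All 4 values were below 0 for 11 members (28.9%), against 23.5% of genes measured on every array, and above 0 for 2 members, against 22.8%. In a count made after the values were seen, 6 members (15.8%) were below 0 on arrays 1 and 2 and above 0 on arrays 3 and 4, against 3.54% of all genes. What set these arrays apart was not tested.

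Of the factors that prepare the mRNA, PAB1, which binds the poly(A) tail and bridges it to eIF4G, fell by 1.22 on the log2 scale. Its log2 ratios were -1.42, -1.76, -0.53 and -1.17 on arrays 1 to 4, or -1.22 ± 0.52 (SD, n = 4; 2.33-fold lower; limma adjusted p = 0.00876). Every array placed it below 0, and 4.0% of all genes had a lower mean. None of the other 7 genes of this group passed, so 1 of 8 was called lower (12.5%, against 11.8% of all genes). The cap-binding protein gene CDC33 (eIF4E) was at -0.35 ± 0.35, with values of -0.59, -0.45 and -0.53 on arrays 1 to 3 and 0.16 on array 4 (SD, n = 4; limma adjusted p = 0.202). DED1, a helicase that unwinds leaders for scanning, ranged from -1.51 on array 2 to 0.64 on array 3. The helicase cofactor gene TIF3 (eIF4B) averaged -0.03 ± 0.51 (SD, n = 4). These groups of values straddle 0, so no shift beyond the spread between arrays was seen for them.

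The scaffold eIF4G and the helicase eIF4A are each made from a pair of genes. TIF4631, the major eIF4G gene, read -0.59, -0.45, -0.24 and 0.38 on arrays 1 to 4 (log2 ratios), and TIF4632 read -0.68, -0.69, 0.42 and 0.65. Their means were -0.23 ± 0.43 and -0.07 ± 0.71 (SD, n = 4; limma adjusted p = 0.444 and 0.861). TIF1 and TIF2, which encode the same eIF4A protein, gave nearly the same reading on each array. TIF1 was at -0.54, -1.05, 0.40 and 0.11, and TIF2 at -0.54, -1.18, 0.50 and 0.15. Both were below 0 on arrays 1 and 2 and above 0 on arrays 3 and 4, and neither passed (limma adjusted p = 0.467 and 0.515).

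In eIF3, the large scaffold of the small subunit, RPG1 was the 1 subunit gene of 6 that fell (16.7%, against 11.8% of all genes). RPG1 encodes eIF3a, on which the complex is built, and its log2 ratios over arrays 1 to 4 were -0.78, -1.04, -0.31 and -0.54 (mean -0.67 ± 0.31, SD, n = 4; 1.59-fold lower; limma adjusted p = 0.0363). NIP1 (eIF3c) was also below 0 on every array, at -0.35 ± 0.39 (SD, n = 4), without passing (limma adjusted p = 0.218). PRT1 (eIF3b) spread from -1.97 on array 2 to 0.40 on array 3, an SD of 1.03 that no other gene of the initiation groups reached. The smaller subunit genes TIF34 (eIF3i) and TIF35 (eIF3g) averaged 0.09 and -0.15. HCR1 (eIF3j), a loosely bound subunit, was above 0 on all arrays at 0.21 ± 0.20 (SD, n = 4; limma adjusted p = 0.389). The means of the 6 subunit genes lay between -0.67 and 0.21. Only the RPG1 mean was called different from 0, and differences between subunits were not tested.

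Among the 7 genes of eIF2, start codon selection and subunit joining, 0 passed, against 24.8% of all genes in either direction. Their means ran from -0.47 to 0.19. No gene of this group reached an unadjusted p under 0.05 either. The eIF2 subunit genes SUI2 (alpha), SUI3 (beta) and GCD11 (gamma) averaged -0.38, -0.10 and -0.47, and SUI2 was below 0 on every array. SUI1 (eIF1), which guards start codon choice, was at -0.28 ± 0.44, and TIF11 (eIF1A) at 0.19 ± 0.54 (SD, n = 4). TIF5 (eIF5), which triggers GTP hydrolysis on eIF2, was at 0.15 ± 0.39, and FUN12 (eIF5B), which joins the large subunit, at -0.28 ± 0.62 (SD, n = 4). For the limma 95% intervals of these 7 genes the lowest bound was -0.98 (GCD11) and the highest 0.72 (TIF11), so falls or rises of up to about that size remain compatible with the data.

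The exchange factor eIF2B recycles eIF2 and has 5 subunits, and here its genes lay on both sides of 0. For GCN3, the alpha subunit that senses phosphorylated eIF2, the log2 ratios over arrays 1 to 4 were -0.56, -0.74, -0.48 and -0.35. Its mean of -0.53 ± 0.16 (SD, n = 4; 1.45-fold lower) had the smallest SD of the 38 members and passed narrowly (limma adjusted p = 0.0489). No other gene of the 5 passed, so 20.0% were called lower, against 11.8% of all genes. GCD2, the delta subunit, had the highest mean of all members, with log2 ratios of 0.68, 1.13, -0.10 and 0.70. The mean was 0.60 ± 0.51 (SD, n = 4) and missed the threshold (limma adjusted p = 0.086), array 3 being the 1 array below 0. GCD2 passed without array 3 (limma adjusted p = 0.0239). GCD7 (beta) averaged 0.31, while the catalytic subunit genes GCD1 (gamma) and GCD6 (epsilon) averaged -0.21 and -0.24.

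The elongation factors held most of the larger falls, with 5 of their 10 genes called lower. The share was 3 of 28 for the initiation and release factor genes (10.7%) and 11.8% for all genes. These shares were not tested against each other, and the elongation factor calls depended on single arrays. Without array 1 or array 4, EFB1 was the only elongation factor gene called lower, and without array 2 only EFB1 and YEF3 were. Without array 3, all of these genes but CAM1 and HYP2 were called lower. All eEF1 genes but CAM1 had a mean below 0. TEF1 and TEF2 encode the same eEF1A protein, which brings aminoacyl-tRNA to the ribosome. TEF2 fell, at -0.73, -1.85, -0.12 and -0.89 over arrays 1 to 4 (mean -0.90 ± 0.72, SD, n = 4; limma adjusted p = 0.0489). TEF1 had -0.46, -1.39, 0.17 and -1.41 and did not pass (mean -0.77 ± 0.77, SD, n = 4; limma adjusted p = 0.0877). Array 3 gave its 1 value above 0, and without that array TEF1 was called lower too (limma adjusted p = 0.0151).

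EFB1 encodes the nucleotide exchange subunit of eEF1B, which reloads eEF1A with GTP, and gave the smallest p of the members. Its log2 ratios were -1.08, -1.67, -0.87 and -0.98 on arrays 1 to 4, with a mean of -1.15 ± 0.35 (SD, n = 4; 2.22-fold lower; limma adjusted p = 0.0055). The gamma subunit of eEF1B has a pair of genes, TEF4 and CAM1, with different readings here. TEF4 was at -0.60, -1.56, -0.28 and -1.05 and fell (mean -0.87 ± 0.56, SD, n = 4; limma adjusted p = 0.0334). CAM1 was above 0 on all arrays, at 0.54, 0.64, 0.15 and 0.25, without passing (mean 0.39 ± 0.23, SD, n = 4; limma adjusted p = 0.127). TEF4 was therefore below CAM1 on every array, by 1.27 ± 0.73 on average (SD, n = 4), and the exact sign-flip permutation test gave p = 0.125, the smallest that 4 arrays allow.

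YEF3, the gene of the fungal elongation factor eEF3, had the lowest mean of all members and the second widest spread. Its log2 ratios were -1.89, -2.95, -0.23 and -0.92 on arrays 1 to 4, averaging -1.50 ± 1.18 (SD, n = 4; 2.82-fold lower; limma adjusted p = 0.0345). Every array was below 0, but array 3 lay close to it, and 2.38% of all genes had a lower mean. HEF3, a paralog of YEF3 that is little expressed in growing cells and is not among the 38, was at -1.50, -1.06, -1.74 and -2.05 and also fell (mean -1.59 ± 0.42, SD, n = 4; limma adjusted p = 0.00213). The order of the 2 genes turned between arrays, YEF3 being below HEF3 on arrays 1 and 2 and above it on arrays 3 and 4 (exact sign-flip permutation p = 1.0, n = 4).

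EFT1 and EFT2 encode the same eEF2 protein, and their readings were close on every array. EFT1 was at -0.56, -1.45, 0.30 and -0.70, and EFT2 at -0.61, -1.61, 0.34 and -0.77. Neither passed (means -0.60 ± 0.72 and -0.66 ± 0.80, SD, n = 4; limma adjusted p = 0.143 and 0.137), and both were called lower without array 3 (limma adjusted p = 0.0275 and 0.0215). The factor eIF5A, which helps ribosomes past difficult peptide bonds, is encoded by HYP2 in aerobic cells and by ANB1 under low oxygen, where haem-dependent repression is lifted. HYP2 fell, with log2 ratios of -0.23, -0.78, -0.64 and -0.72 (mean -0.59 ± 0.25, SD, n = 4; 1.51-fold lower; limma adjusted p = 0.0439). ANB1 had almost the same mean, -0.58, but with values of -0.81, -2.05, 0.82 and -0.29 its SD of 1.19 was the widest of the members and it did not pass (limma adjusted p = 0.325). The means of the pair thus hid opposite orders on single arrays, HYP2 being above ANB1 on arrays 1 and 2 and below it on arrays 3 and 4 (exact sign-flip permutation p = 1.0, n = 4).

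Neither release factor gene passed. SUP45 (eRF1), which reads stop codons, was below 0 on all arrays at -0.87, -0.89, -0.30 and -0.08 (mean -0.54 ± 0.41, SD, n = 4; limma adjusted p = 0.0893). SUP35 (eRF3), its GTPase partner, had -0.72, -0.21 and -0.28 on arrays 1 to 3 and 0.22 on array 4 (mean -0.25 ± 0.39, SD, n = 4; limma adjusted p = 0.383).

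Within the family of paralogs, 7 pairs were compared within each array, and none reached a p under 0.05 in a test whose smallest p is 0.125. Of the 3 pairs that encode one and the same protein, TIF1 and TIF2 were within 0.13 of each other on every array and EFT1 and EFT2 within 0.15. TEF1 and TEF2 differed by up to 0.51, with an SD of 0.43 over the arrays, about that of TIF4631 and TIF4632 (0.40), whose proteins differ. Probes for such copies can bind both transcripts, so these pairs may not be independent readings. TIF4631 and TIF4632 differed by at most 0.66, and the pairs TEF4 and CAM1, HYP2 and ANB1, and YEF3 and HEF3 by up to 2.20, 1.46 and 1.89.

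**Figure D2:**
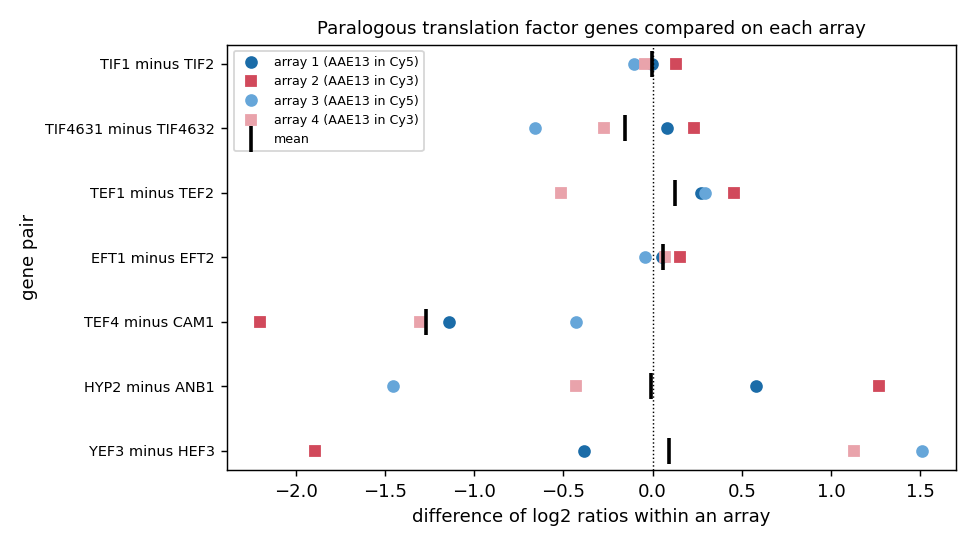
Difference of the log2 ratios of 2 paralogs within an array (horizontal axis) for 7 pairs (vertical axis); points are single arrays and black ticks the means (n = 4). TIF1 against TIF2 and EFT1 against EFT2 stay within 0.15 of 0, and TEF4 is below CAM1 on all 4 arrays.

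The dye orientation moved with the size of the elongation factor ratios. With AAE13 in Cy5 the median eEF1 log2 ratio was -0.43, and with AAE13 in Cy3 it was -1.32. For the eEF2, eEF3 and eIF5A genes these medians were -0.13 and -1.17. The eIF4F and eIF3 groups were also lower in Cy3, at -0.10 against -0.31 and -0.01 against -0.26. The other roles went the opposite way, with -0.23 in Cy5 and -0.08 in Cy3 for the eIF2 group, -0.38 and -0.03 for eIF2B, and -0.54 and -0.24 for the release factors. Over all 38 members the medians were -0.19 and -0.48, 22 members had the lower mean in Cy3, and 29 had a mean below 0 in each orientation. For the 8 called genes, both orientations gave a mean below 0, from -1.06 (YEF3) to -0.43 (TEF2 and HYP2) in Cy5 and from -1.93 (YEF3) to -0.54 (GCN3) in Cy3. With a dye term in the fit, limma called the orientation effect itself for 0 genes, with 721 genes (17.7%) and 3 members (7.89%) at an unadjusted p under 0.05. In that fit 8 members (21.1%) were again lower, against 15.1% of all genes, with TEF1 called (limma adjusted p = 0.0235) and YEF3 not (limma adjusted p = 0.0576).

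Set beside related gene groups on the same arrays, the translation factors had a median (-0.32) between those of the ribosomal proteins and of all genes. Of 135 cytosolic ribosomal protein genes, 39 were called lower (28.9%, against 11.8% of all genes) and 1 higher, with a median log2 ratio of -0.67. The 40 calls in either direction became 5 without array 1, 16 without array 2, 72 without array 3 and 9 without array 4, and 1 with the arrays not centred. The ribosomal protein medians were -0.94, -1.38, -0.15 and -0.27 on arrays 1 to 4, beside -0.54, -0.76, -0.07 and 0.02 for the translation factors. Both groups were lowest on array 2, while the ribosomal proteins came nearest to 0 on array 3 and the translation factors on array 4. Of the 17 cytosolic tRNA synthetase genes tested, 3 were called higher (17.6%, against 13.0% of all genes) and 0 lower, and their median was 0.23. On array 2 their median was -0.03, with 11 of the 17 below 0. The 3 calls became 5 without array 2, 4 without array 3 and 1 without array 4, where ILS1 was among those lost (limma adjusted p = 0.0626), and 7 with the arrays not centred. TYS1, the tyrosine enzyme, was at 1.35 ± 0.27, and ILS1, the isoleucine enzyme, at 1.22 ± 0.58 (SD, n = 4; limma adjusted p = 0.00228 and 0.0107). Differences between these groups were described and not tested, and fewer transcripts of a gene cannot be told apart from a changed share of the labelled RNA.

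**Figure D3:**
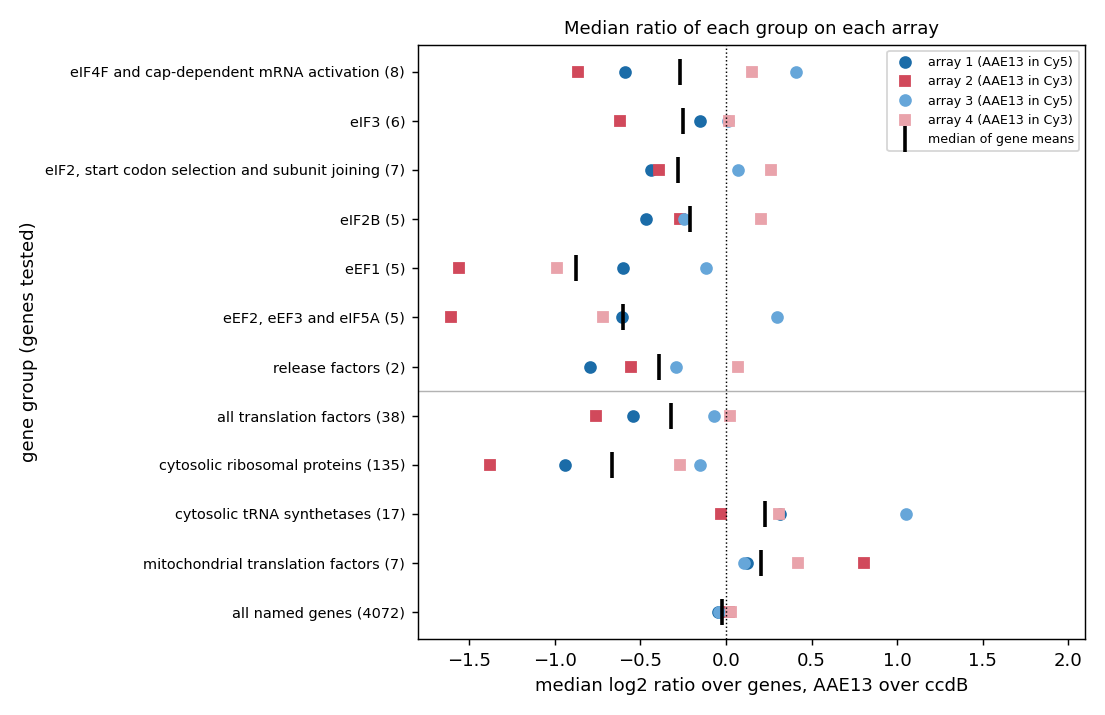
Median log2 ratio over the genes of a group (horizontal axis) for the 7 roles of translation factors and, under the line, for all translation factors and 4 other groups (vertical axis, genes tested in brackets); points are single arrays and black ticks the medians of gene means. The eEF1 genes have the lowest median of the roles (-0.87), and the ribosomal proteins are at -0.67.

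**Figure D4:**
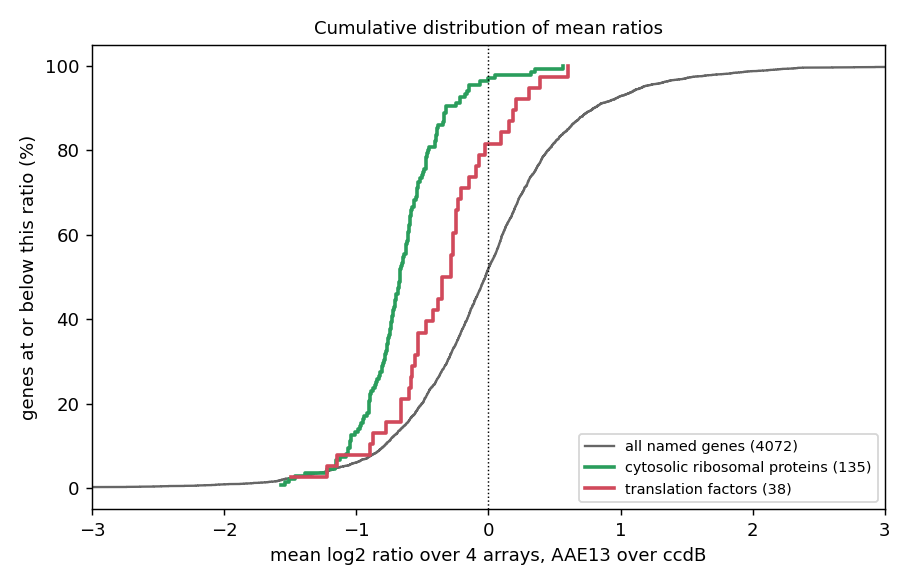
Share of genes at or below a mean log2 ratio (vertical axis, %) against that ratio (horizontal axis, mean of 4 arrays) for the translation factors, the cytosolic ribosomal proteins and all named genes. At 0 the translation factor curve has reached 81.6%, against 52.0% for all genes, and its median is -0.32.

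Other genes of the translation machinery were tested in short lists, of 6 to 14 genes. In the list of elongation, recycling and rescue factors outside the 38, 2 of 9 genes tested fell (22.2%, against 11.8% of all genes) and 0 rose, namely HEF3 and NEW1, an eEF3-related ATPase (-1.33 ± 0.96, SD, n = 4; limma adjusted p = 0.0291). NEW1 lost its call without array 4 (limma adjusted p = 0.119), which left 1 call in that list. Of 14 mRNA-bound regulators, STM1, which clamps idle ribosomes, fell (-0.92 ± 0.74) and PUB1, a poly(U)-binding protein gene, rose (0.65 ± 0.15; SD, n = 4; limma adjusted p = 0.0489 and 0.0256). At 1 of 14 (7.14%) each way these shares were below those of all genes (11.8% lower, 13.0% higher), and 0 genes of that list were called without array 1 or array 4. Among 6 genes of the Gcn pathway and tRNA delivery, CDC123, an assembly factor of eIF2, fell (-0.55 ± 0.22, SD, n = 4; limma adjusted p = 0.0499), while the eIF2 kinase gene GCN2 was at -0.48 and GCN4 at -0.21 without passing. That is 16.7%, against 11.8% of all genes, and CDC123 lost its call whichever array was left out (limma adjusted p from 0.0837 to 0.179). Of the 7 mitochondrial translation factor genes tested, 3 rose (42.9%, against 13.0% of all genes) and 0 fell, and 2 were called whichever array was left out. The other 4 did not pass, with MEF1 at -0.24 and IFM1 at -0.22, and the median of the 7 was 0.21. MEF2, a mitochondrial elongation factor G gene, was at 1.35 ± 0.48 and TUF1, the mitochondrial EF-Tu gene, at 1.27 ± 0.55 (SD, n = 4; limma adjusted p = 0.00479 and 0.00832).

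The calls of single members depended on single arrays. PAB1 and EFB1 stayed called lower whichever array was left out, with limma adjusted p from 0.00245 to 0.048 for PAB1 and from 0.00604 to 0.032 for EFB1. YEF3 lost its call without array 1 or array 4 (limma adjusted p = 0.0994 and 0.0809). RPG1, TEF2 and TEF4 lost theirs without array 1, 2 or 4, and GCN3 and HYP2 without any 1 array. Without array 1, 2 members were called lower (5.26%), against 6.36% of all genes. Without array 2 there were 3 (7.89%), against 8.96%, and without array 4 there were 2 (5.26%), against 4.59%. Leaving out array 3 gave 10 members (26.3%), against 13.2% of all genes. The members' share was thus above that of all genes with all 4 arrays and without array 3, and near or below it in the other 3 fits, differences that were not tested.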

How the data were processed

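The deposited table holds 1 log2 ratio per probe and array (6256 probes, 4 arrays, 4 missing values). Per the labels' protocols, RNA was reverse transcribed from oligo-dT and labelled indirectly, with 4 biological replicates per strain. No source used here gives the scanner, software, normalization, direction or log base. Deposited array medians were 0.431, 0.764, -0.173 and 1.408, so each array was centred on its median over all probes.

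Platform annotation named 1 gene for 4075 probes. Symbols were updated through the R64 gene table (3942 probes had a current symbol, 125 an older one and 8 kept the file name), and 3 genes with more than 1 probe were averaged. Genes measured on at least 3 arrays entered limma 3.58.1 under R 4.3.3 (lmFit, then eBayes). Each mean was tested two-sided for a difference from 0, p-values were adjusted over 4072 genes by Benjamini-Hochberg, and the threshold was 0.05. The fit was tested on simulated data. Paralogs were compared by exact sign-flip tests over arrays. Figures used Python 3.11.15 and matplotlib 3.10.9. Per-array values were printed for called members, paralogs and the extremes, and the 2 largest called changes of each other list. The members and lists were chosen with earlier results of these data known. No sequences were used here, so the planned promoter search was not run.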

Additional observations from a re-analysis of the deposited data

How the results depend on the processing

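The 8 falls did not depend on scaling the arrays to equal spread, quantile normalization, robust moderation or the filter on missing values, under which the same 8 genes were called. With all probes tested 6 members were called lower (15.8%, against 10.9% of all probes). GCN3 and TEF2 were lost there (limma adjusted p = 0.0534 and 0.05003). With array weights 7 were called lower (18.4%, against 12.6% of all genes), and HYP2 was lost (limma adjusted p = 0.0551). Over the fits that left out 1 array, all named genes called ran from 427 to 1045, members called lower from 2 to 10, members called higher from 0 to 1 and the median of the members from -0.48 to -0.18. Under the unmoderated test 143 of 4072 genes passed (1.23% of genes were called lower) and 0 members passed. At an unadjusted p under 0.05 there were 6 members and 1225 of 4072 genes. With the arrays not centred, 0 members were called lower, against 1.35% of all genes. Among the members 1 was called higher (GCD2, limma adjusted p = 0.0292), against 744 of 4072 genes. The members' median was 0.29, and GCN3 and HYP2 turned to 0.075 and 0.0175, while 31 of 38 members were still below the median of all genes. Read as Cy5 over Cy3, 0 genes and 0 members were called, with 154 genes and 0 members at an unadjusted p under 0.05. In that reading the median of the members was 0.14 and all 8 called genes changed sign, to 0.24 (PAB1), 0.12 (RPG1), 0.0108 (GCN3), 0.47 (TEF2), 0.43 (TEF4), 0.18 (EFB1), 0.44 (YEF3) and 0.16 (HYP2). These 8 sign changes are arithmetic, because arrays 2 and 4 were turned and the 8 genes had lower means there than on arrays 1 and 3. Why the means were lower there was not tested. Of members called in neither setting, 17 changed sign in that reading and 21 without centring. No paired analysis was possible because each ratio already pairs 1 AAE13 culture with 1 control culture on its array. Signal over background is unknown, so dim probes could not be set apart.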

Other observations

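Gcn4 activates genes of amino acid synthesis, and its own translation increases when eIF2 is phosphorylated. Of 8 such target genes, 7 rose (87.5%, against 13.0% of all genes) and 0 fell. The median log2 ratio of the 8 was 1.63, and ILV2 did not pass. ARG4, argininosuccinate lyase, was at 1.58, 2.14, 2.34 and 2.08 on arrays 1 to 4, and HIS3, a histidine synthesis gene, at 1.85, 1.74, 2.28 and 1.56 (limma adjusted p = 0.000631 and 0.000843). All 8 genes were above 0 on every array, and between 7 and 8 of them were called whichever array was left out. The list was chosen with earlier results of these data known, and arginine genes were already known to be higher. Of the enzymes that modify translation factors, 4 genes were tested and 0 passed in limma, against 24.8% of all genes in either direction. DYS1, which starts the hypusine modification of eIF5A, was at 0.09, and DPH5, which acts on eEF2, at -0.53.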
